A study of Rattus norvegicus with 90 samples.

Results

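A set of 240 rat liver transcripts, of 40071 transcripts quantified, stood well below vehicle 24 h after a high dose of thioacetamide, with a difference from vehicle at 8 h that was limited in size by the way they were chosen. The members were chosen on the measured values themselves. For each transcript, a centred log2 difference was taken between the mean level of the high dose and vehicle libraries. The level was the share of a library's transcript counts, in CPM (counts scaled to a fixed library total), with 1 CPM added to each mean. The median difference over transcripts with a vehicle level of at least 1 CPM was then subtracted. Members had a centred difference of -1.5 or less in liver at 24 h and one between -0.5 and 0.5 at 8 h. Their liver vehicle level also had to be less than 20 times the larger of the kidney and heart vehicle levels, taken at 24 h, a limit that reduced 341 transcripts to 240. The liver differences between high dose and vehicle at both times are therefore descriptions of how the members were picked, and no test of them is given. The 24 h vehicle kidneys and hearts entered the choice only through the limit between organs.

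The samples came from male Sprague-Dawley rats that received saline vehicle (3 ml/kg), or thioacetamide at 25 mg/kg (low dose) or 100 mg/kg (high dose), by intraperitoneal injection. Liver, kidney and heart were taken from the same animals after 8 or 24 h, which gave 18 groups of 5 samples and 90 samples in all. Per the study's methods, all rats carried a jugular catheter, were dosed in the morning without food for the 8 h groups, and in the evening with food for the 24 h groups, with food removed for the last 8 h. By those methods tissue was taken at 5 pm at both times, after 8 h without food. Time after dosing cannot be told apart from the hour of dosing and the earlier feeding. No rat was untreated, and vehicle served as the control at each time. No age is given in the labels.

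Thioacetamide is itself of low reactivity, and cytochrome P450 and flavin-containing monooxygenases of the liver oxidise it to reactive products that bind protein and lipid. The cells around the central vein, where these enzymes are most abundant, are the ones injured first. Kidney also holds monooxygenases and expresses many of the same metabolic genes, while heart shares mainly genes used by most cells. RNA was taken from whole tissue, so fewer cells of a type and less RNA per cell cannot be told apart. The files identify transcripts by Ensembl identifier and length alone and do not pair them with gene names, so the roles of the members and cell type markers were not assessed. Members are given below by identifier where at most 2 per direction and comparison are named, and otherwise by length and rank.

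Each library held between 16332764 and 36303248 estimated counts. Besides transcripts, the quantification listed 25095 genomic intervals, which took from 4.08% to 28.9% of a library's counts. Of the 29 liver libraries used, 7 had between 14.8% and 28.9% of counts on intervals and 22 had between 4.08% and 9.63%. One liver library labelled 24 h vehicle (MS-1) was the same, within 1 count for 99.956% of 15797 transcripts, as a library labelled 8 h low dose (MS-9), against 3.82% for the next closest pair of liver libraries. MS-1 was left out of all values here unless stated, which leaves 4 vehicle libraries at 24 h, and MS-9 was kept under its label. With MS-1 kept in the rule, 190 of the 240 members were found again in a set of 192.

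Lowered here means lowered relative to the median transcript. In the high dose livers at 24 h, the median transcript stood 0.68 log2 units above vehicle in CPM, and this shift was subtracted. The shift was 0.44 at the low dose at 24 h, 0.25 at the low dose at 8 h and 0.05 at the high dose at 8 h. The 100 transcripts most abundant in the 24 h vehicle livers held from 49.2% to 53.5% of transcript counts in those livers and from 34.3% to 42.9% in the high dose livers. Before centring, the members' median log2 difference was -1.18, and 177 of the 240 stood at -1 or less. When the median was not subtracted at all, 55 transcripts met the limits, of which 49 were members.

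At 24 h the centred log2 difference of the members ran from -3.75 to -1.5 with a median of -1.86, and 89 members stood at -2 or less and 13 at -3 or less. Their median level was 51.2 CPM in vehicle livers, 28.9 CPM in low dose livers and 19.8 CPM in high dose livers. In 172 of 240 members all 5 high dose libraries lay below all 4 vehicle libraries, compared with 8.64% of transcripts of at least 1 CPM in vehicle livers. The rule used this contrast, so nothing is read from that difference. The remaining members overlapped between high dose and vehicle, although their means differed enough to meet the rule.

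The lowest member, ENSRNOT00000040879 (2867 bases), was at 13.9, 22.7, 18.6 and 28.1 CPM in the 24 h vehicle livers. It was at 1.81, 1.63, 1.77, 2.05 and 0.758 CPM in the high dose livers, and its mean fell from 20.8 ± 6.08 CPM (SD, n = 4) in vehicle down to 1.60 ± 0.497 CPM (SD, n = 5). The low dose livers, at 4.32, 4.25, 4.53, 6.85 and 3.87 CPM, lay between the other groups, and no low dose value overlapped either of them. At 8 h its levels overlapped across all 3 doses, from 4.44 to 12.3 CPM in vehicle, 6.23 to 11.9 CPM at the low dose and 4.36 to 10.1 CPM at the high dose. The vehicle level at 24 h was above every 8 h value.

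The second lowest member, 2676 bases long, was at 29.8 ± 1.83 CPM (SD, n = 4) in vehicle and 2.70 ± 0.320 CPM (SD, n = 5) in high dose livers, with the low dose livers from 7.79 to 14.9 CPM. The third, 5134 bases long, was at 65.9 ± 15.1 CPM (SD, n = 4) and 7.17 ± 2.09 CPM (SD, n = 5), with the low dose livers from 20.8 to 37.5 CPM. In both, the 3 groups did not overlap. The fourth, 1038 bases long, was far more abundant, at 531.5 ± 167 CPM (SD, n = 4) against 80.6 ± 9.81 CPM (SD, n = 5). The fifth, of 600 bases, was at 92.9 ± 12.2 CPM (SD, n = 4) against 13.6 ± 2.75 CPM (SD, n = 5). The next 5 members had centred differences from -3.29 to -3.15. In all 10 of these members the high dose and vehicle libraries did not overlap at 24 h.

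**Figure D1:**
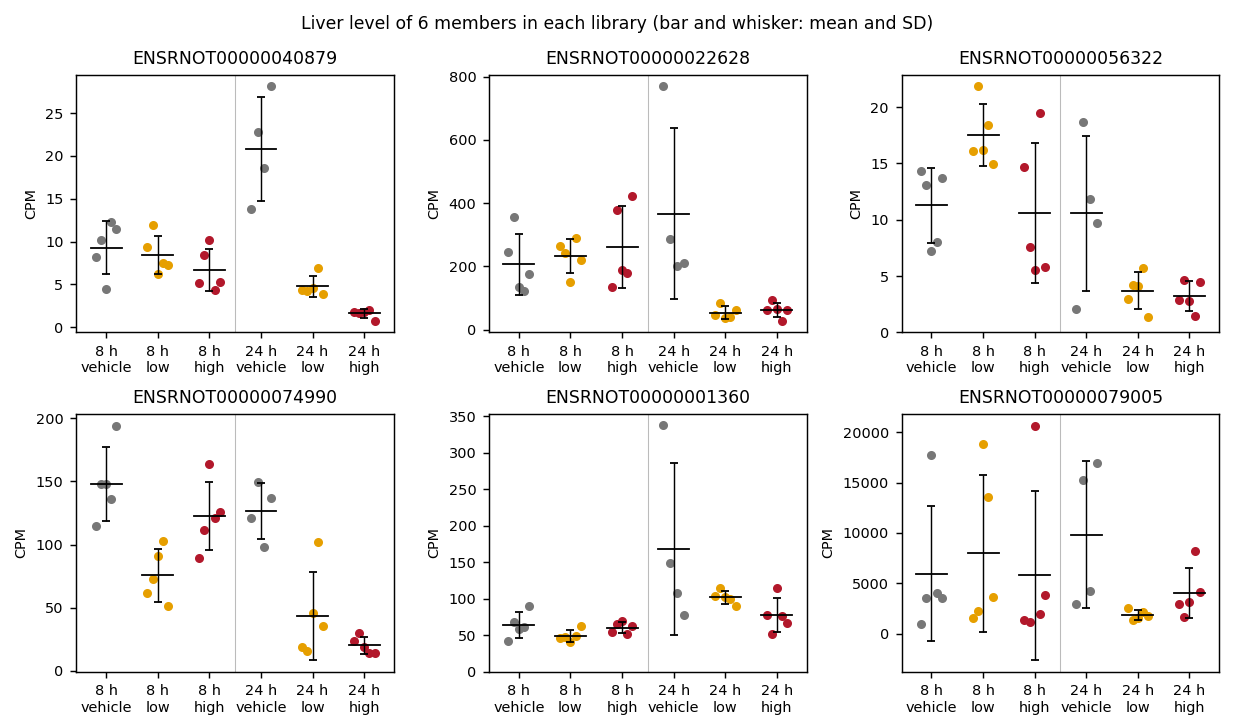
Liver level in CPM of 6 members in each library by time and dose, each point 1 library, with the group mean as a bar and the SD as a whisker (n = 5, or 4 for 24 h vehicle). ENSRNOT00000040879 was at 13.9 CPM or more in the 24 h vehicle livers and at 2.05 CPM or less at the high dose, while the high values of ENSRNOT00000079005 sat in 2 of 4 vehicle livers at 24 h and, at 8 h, in 1 vehicle, 2 low dose and 1 high dose library.

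Not every large difference was shared by the vehicle libraries. ENSRNOT00000022628 (2148 bases), the eighth lowest, was at 769.7 CPM in vehicle library MS-4 and at 286.2, 199.6 and 211.4 CPM in the other vehicle livers, against 28.3 to 93.0 CPM at the high dose. Its groups were apart with or without MS-4. In 29 members, 1 library held more of the summed vehicle CPM than the other 3 together, which was MS-4 in 14 of them, and 8 of the 29 had a mean vehicle level of 5 CPM or more. In all, 50 members had a mean vehicle level under 5 CPM. In 10 members the level was under 0.01 CPM in every high dose liver, and no fold is given for them. Without MS-4, 207 of the 240 members were found again.

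Abundance followed a different order from the size of the difference. The most abundant member, ENSRNOT00000079005 (798 bases), was at 2905, 15300, 4187 and 16950 CPM in the 24 h vehicle livers, and at 2922, 1662, 3161, 8196 and 4160 CPM in the high dose livers. The groups overlapped, as they did in the next pair, members of 666 bases with identical counts at a vehicle mean of 4785 CPM. The most abundant member whose groups did not overlap was 1535 bases long, at 2889 ± 460.3 CPM (SD, n = 4) in vehicle and 1217 ± 124 CPM (SD, n = 5) in high dose livers. Of the 10 most abundant members, 3 were among those described next and 7 were not, and in 5 of the 7 the groups did not overlap. The exceptions were of 4706 bases, at 2528 ± 623 CPM against 1229 ± 371 CPM, and of 1140 bases, at 1356 ± 1142 CPM against 274.5 ± 244 CPM (SD, n = 4 and 5). Per length, the highest vehicle level was 17478 TPM (reads per length, scaled to a fixed total), in a set of members of 49 bases with identical counts. These are shorter than a read, so what their level per length means is uncertain. The 1535-base member was at 2057 TPM.

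A block of 23 members followed the share of counts on intervals. They were picked out, after their values were seen, as the members whose lowest level among the 7 liver libraries above 10% on intervals exceeded their highest level among the other 22. Among 14989 transcripts with a mean liver level of at least 1 CPM, 39 (0.260%) met that criterion. The 23 transcripts had only 6 distinguishable profiles. They comprised 8 members of 49 bases, 6 of 57 bases, 5 of 411 bases and 2 of 666 bases, each set with counts in every library equal to within 1 part in 1000 or 0.01 count, and single members of 798 and 11681 bases. Reads were 75 bases, so 14 of the 23 were shorter than a read, and counts within an identical set cannot be assigned to one transcript.

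The 23 members together took from 2686 to 10566 CPM in the 22 liver libraries up to 10% on intervals and from 19662 to 54442 CPM in the 7 above. The ranges did not overlap, as the choice of the 23 required, and each held libraries of vehicle and high dose at both times. In kidney they took from 3048 to 7137 CPM in 10 libraries up to 10% and from 5526 to 29864 CPM in 20 above, and in heart from 1723 to 6124 CPM in 18 and from 7509 to 25130 CPM in 12. Of the 4 vehicle livers at 24 h, 2 lay above 10% (20.6% and 25.0%), as did 1 of the 5 high dose livers (14.8%) and none of the low dose livers (5.10% to 7.02%). None of the 23 had every high dose library below every vehicle library. The way they were chosen fixed this, because a high dose liver at 24 h lay above 10% while some vehicle livers lay below.

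Without the 7 libraries above 10%, none of the 23 remained a member. Their centred difference at 24 h was then between -1.13 and -0.50, from 2 vehicle and 4 high dose livers. Of the other 217 members, 192 still stood at -1.5 or less at 24 h, and 150 were found again in a set of 264. Of the 217, 46 then stood under -0.5 at 8 h. The 23 were chosen as highest in the 7 libraries above 10%, so leaving these out lowered their vehicle mean at 24 h by construction. Nothing is read from their loss. The values of the 23 members moved with the share of counts on intervals, as their choice required, and the part of that share in them was not tested. Values below are given for the 240, with those of the 217 where the sets differ.

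**Figure D2:**
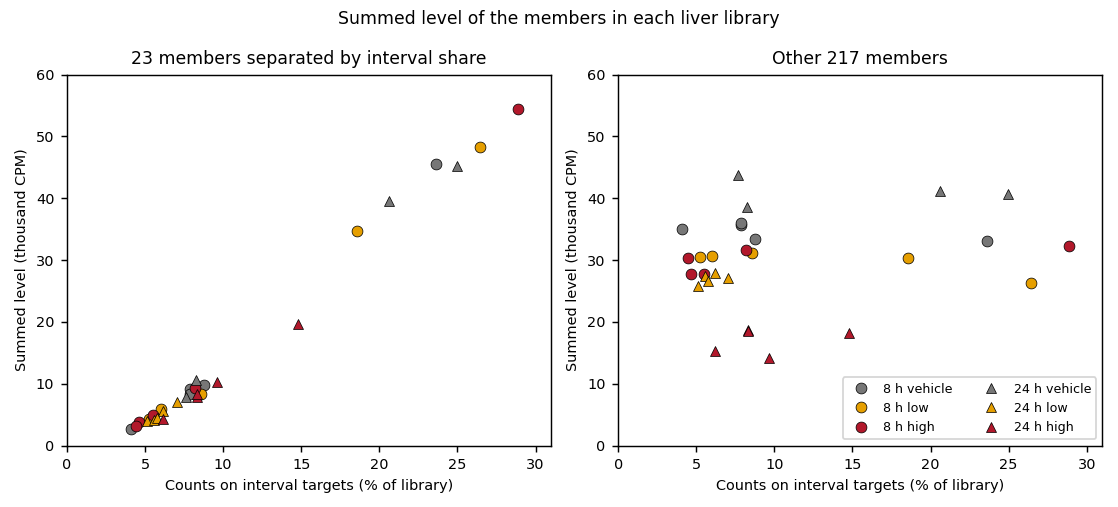
Summed level, in units of 1000 CPM, of the 23 interval-linked members (left) and of the other 217 (right) against the percentage of counts on intervals in each of 29 liver libraries. The 23 ranged up to 54442 CPM and were at 19662 CPM or more in the 7 libraries over 10%, at any dose, while the 217 summed to between 14235 and 18725 CPM in the 5 high dose livers at 24 h, below all others.

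The other 217 members were low in every high dose liver at 24 h, where all 217 stood below the vehicle mean after centring. Their summed level was between 38648 and 43743 CPM in the 24 h vehicle livers, between 25746 and 27978 CPM at the low dose and between 14235 and 18725 CPM at the high dose. No library overlapped with another dose in this sum at 24 h. The members were picked on these high dose and vehicle livers, so nothing is read from the separation of those groups. Taken singly, 172 of the 217 had every high dose library below every vehicle library. At 8 h the sums were between 33066 and 35932 CPM in vehicle, 26319 and 31153 CPM at the low dose and 27800 and 32211 CPM at the high dose. Both doses were thus already below vehicle in summed CPM at 8 h, and their ranges overlapped each other. The choice of members with a limit on the 8 h difference did not remove a small early difference: 205 of the 240 had a centred 8 h difference below 0, and the median over the 240 was -0.27.

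The low dose at 24 h was not used by the rule, but it was compared with the same vehicle livers, so its values are given side by side with those of the high dose and not as independent results. Over the 240 members the median centred difference was -1.05 at the low dose and -1.86 at the high dose. The low dose mean lay between vehicle and high dose for 187 members, below the high dose for 41 and above vehicle for 12. Every low dose library lay below every vehicle library in 84 of the 217 members and in 22 of the interval-linked 23, compared with 3.59% of transcripts. All 23 had a low dose mean below the high dose mean. By edgeR's quasi-likelihood test, 134 of 223 members tested were called lower at the low dose, compared with 4.15% of transcripts, and none higher, compared with 4.89%. With MS-1 kept, 40 of 222 were called lower, compared with 0.954% of transcripts, and none higher, compared with 0.96%. The low dose shares its vehicle livers with the rule, so these shares are not independent of it.

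**Figure D3:**
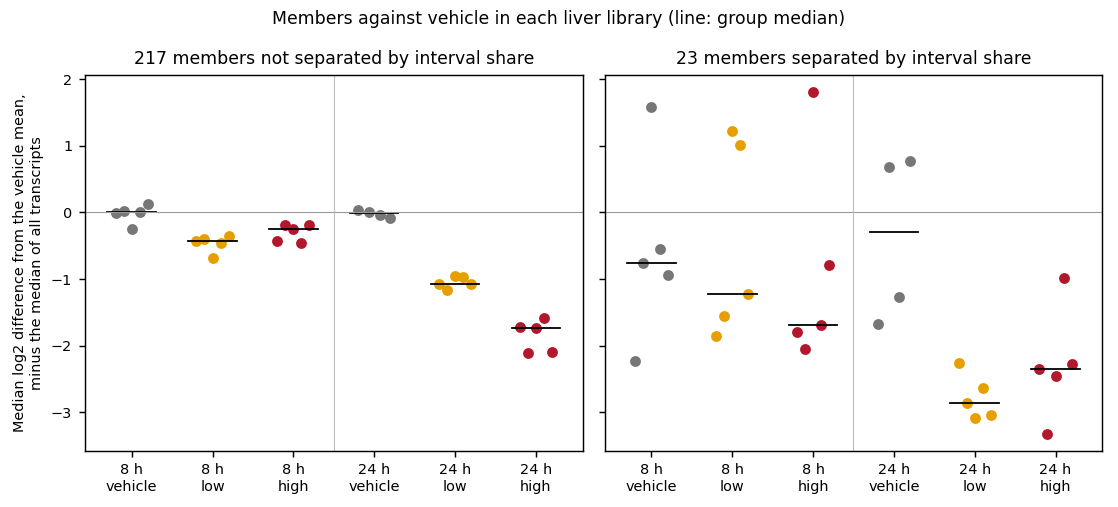
Median over the 217 members (left) and over the 23 interval-linked members (right) of the log2 difference between each liver library and the vehicle mean of its time, centred on all transcripts, with 1 point per library and the group median as a line. On the left the 24 h low dose libraries lay between -1.17 and -0.95 and the high dose libraries between -2.12 and -1.59, while on the right the 8 h high dose points ran from -2.05 to 1.81.

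The low dose livers at 24 h and at 8 h were both outside the rule, and their comparison is independent of it. A call required an adjusted p of 0.01 or less and a natural-log fold change of at least 0.60 (0.866 on the log2 scale) by edgeR. Of 217 members tested, 18 (8.29%) were lower at 24 h than at 8 h, compared with 2.22% of 16792 transcripts tested, and 1 was higher, compared with 1.92%. Among the 13225 tested transcripts averaging 2 CPM or more, 2.53% were called lower. The median log2 fold change was -0.35 over the members tested and -0.03 over all transcripts, and 177 of the 217 were below 0. These 217 tested comprised the 23 interval-linked members, all below 0, and 194 others, with a median of -0.31 and 154 below 0. The deposited TPM was scaled over all targets, intervals included, and no further scaling between libraries was applied to it. On the log2(TPM + 1) scale the medians stood higher, at -0.03 over the 217 members tested and 0.20 over all transcripts. Every low dose library at 24 h lay below every one at 8 h for 19 of the 240 members, compared with 4.3% of transcripts of at least 1 CPM.

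None of the 18 was among the 23 interval-linked members, whose fold changes lay between -2.26 and -1.25 without passing the test. At 8 h, 2 of 5 low dose livers were above 10% on intervals (26.4% and 18.6%) and at 24 h none was. Without these 2 libraries 15 members were called lower, compared with 1.34% of transcripts, and none higher. With the interval share as a covariate 18 were called lower, compared with 1.84% of transcripts, and none higher. The 1 call in the higher direction was thus lost in both, and also when any of 3 single libraries (MS-7, MS-12 or MS-15) was left out. Without MS-9, the library that equals one labelled 24 h vehicle, 14 of 219 were called lower, compared with 1.14% of transcripts, and 1 higher, compared with 1.59%. Both alternatives on intervals were chosen after the data were seen.

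The largest fall among the 18 was that of ENSRNOT00000056322 (1417 bases). It was at 16.1, 21.9, 16.2, 18.4 and 14.9 CPM in the 8 h low dose livers and at 2.95, 4.24, 4.09, 5.75 and 1.34 CPM at 24 h, a log2 fold change of -2.43 ± 0.302 (SE; edgeR adjusted p = 0.000694). The groups did not overlap. Its 8 h low dose values also lay above every 8 h vehicle value (7.25 to 14.3 CPM). In the 24 h vehicle livers it was spread from 2.06 to 18.7 CPM, with the lowest in MS-4, so that it overlapped the treated livers there.

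ENSRNOT00000022628, already described, was at 265.1, 243.2, 149.6, 290.8 and 221.2 CPM at 8 h and at 47.02, 83.7, 35.4, 38.7 and 63.4 CPM at 24 h in the low dose livers. Its log2 fold change was -2.32 ± 0.259 (SE; edgeR adjusted p = 0.000480), and the groups did not overlap. Its level at 24 h was 53.6 ± 19.97 CPM at the low dose and 61.7 ± 22.96 CPM at the high dose (SD, n = 5 each), with overlapping ranges. The third largest fall, -1.78 ± 0.320 (SE; edgeR adjusted p = 0.00313), was that of a 5007-base member whose level went from 135.6 ± 58.5 CPM at 8 h down to 44.96 ± 13.85 CPM (SD, n = 5 each). It was followed by a 1246-base member, at 49.05 ± 12.02 CPM and then 18.9 ± 5.91 CPM, and by a member of 1209 bases, among the 10 lowest at the high dose, at 24.5 ± 7.48 CPM and then 9.89 ± 1.61 CPM (SD, n = 5 each). Apart from the first 3, the others fell by between 0.89 and 1.55 on the log2 scale, at mean 8 h levels from 8.44 to 368.1 CPM. In 12 of the 18 the 2 groups did not overlap, which adds nothing to the calls, as these were made on the same libraries.

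Of the 18, 10 were within the 25 lowest members at the high dose. In the vehicle livers, which the rule used, the same 18 had a median log2 fold change of 0.41 from 8 to 24 h, with 11 of 18 above 0 and a range from -0.77 to 1.17. Over all 224 members tested that vehicle median was 0.31, and 0.25 over the 201 of them not interval-linked, compared with -0.01 for all transcripts. EdgeR called no transcript between the vehicle times. At an unadjusted p under 0.05, 30 members were higher at 24 h and 4 lower, compared with 4.01% and 4.97% of transcripts.

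The member that rose was ENSRNOT00000001360 (1672 bases). It was at 46.2, 48.2, 40.5, 49.1 and 62.4 CPM at 8 h and at 103.9, 115.0, 102.4, 100.2 and 89.7 CPM at 24 h in the low dose livers, a log2 fold change of 0.87 ± 0.117 (SE; edgeR adjusted p = 0.001004). Its 24 h vehicle livers were spread from 77.2 to 338.6 CPM, with the highest in MS-4, and overlapped the low dose. Its vehicle mean at 24 h was 168 ± 117 CPM (SD, n = 4) and its high dose mean 77.5 ± 23.1 CPM (SD, n = 5).

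At 8 h the rule required a small high dose difference, and no test of it is given. At the low dose at 8 h, which shares those vehicle livers, 9 of 218 (4.13%) were called lower, compared with 4.1% of transcripts. None was called higher, compared with 5.78%. The share called lower was near that of all transcripts, so nothing is read from it. The 8 h median centred difference was -0.42 at the low dose and -0.27 at the high dose. Among the 9 were the sixth and seventh lowest members at 24 h. The sixth, 1516 bases long, was at 429 ± 55.4 CPM at the low dose against 859 ± 73.4 CPM in vehicle at 8 h (SD, n = 5 each). The seventh, ENSRNOT00000074990 (1287 bases), was at 75.7 ± 21.04 CPM against 148 ± 29.2 CPM (SD, n = 5 each). In both, the low dose and vehicle groups did not overlap at 8 h, which adds nothing to the calls, made on the same libraries.

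In kidney at 24 h, some of these transcripts were lower at the high dose. The rule used no treated kidney, but it used the 24 h vehicle kidneys in its limit between organs, and a high vehicle level there made a transcript more likely to be a member. By edgeR, 20 of 220 members tested (9.09%) were called lower than vehicle, compared with 2.04% of 18967 transcripts tested, and 1 was called higher, compared with 2.15%. Among the 15385 tested transcripts averaging 2 CPM or more, 2.2% were called lower. The median log2 fold change was -0.40 over the members tested and 0.02 over all transcripts, and 178 of the 220 were below 0. The share of counts on intervals overlapped between the groups, from 9.33% to 17.1% at the high dose and from 9.42% to 18.9% in vehicle. With that share as a covariate the same numbers, 20 lower and 1 higher, were called. None of the 23 interval-linked members was called. Without any limit between organs, the 341 transcripts included 266 tested in kidney, of which 20 were lower and 1 higher, with a median log2 fold change of -0.37. With the limit set on the 8 h vehicle levels, 20 of 221 tested were lower and 1 higher. Both settings were chosen after the data were seen.

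**Figure D4:**
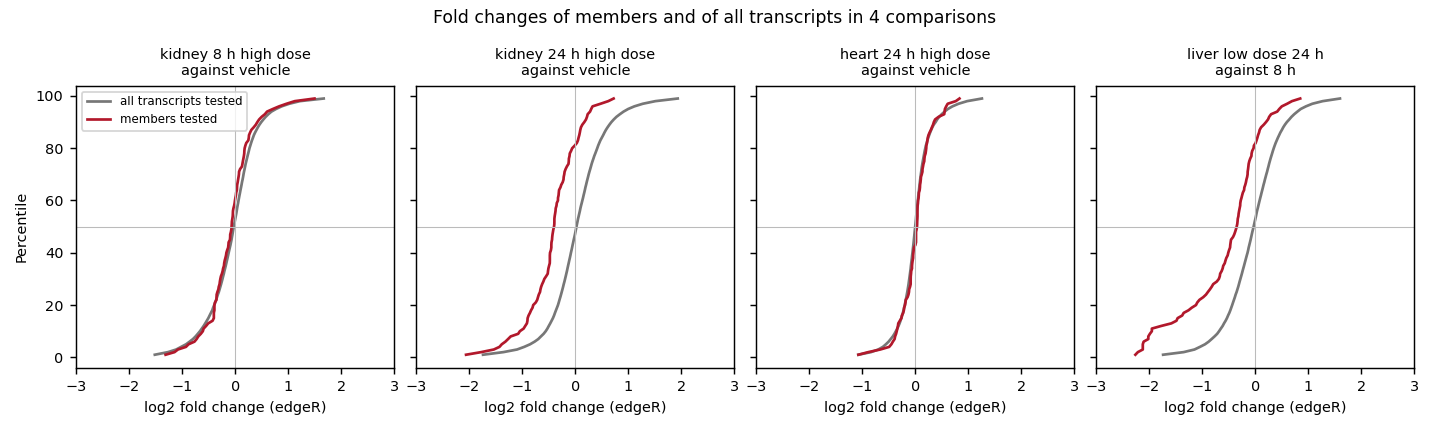
Percentile against log2 fold change (edgeR) of the members tested and of all transcripts tested, in 4 comparisons, of which those in kidney and heart at 24 h share vehicle libraries with the limit between organs. The median member stood at -0.35 in low dose liver at 24 h against 8 h and at -0.40 in kidney at 24 h, against -0.03 and 0.02 for all transcripts, while at -0.07 in kidney at 8 h and 0.03 in heart the curves ran close together.

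The largest fall in kidney was that of ENSRNOT00000074990, also among the lowest in liver. It was at 119.8, 65.5, 117.1, 84.1 and 78.2 CPM in the 24 h vehicle kidneys and at 29.8, 14.7, 19.1, 19.97 and 18.4 CPM at the high dose, a log2 fold change of -2.29 ± 0.231 (SE; edgeR adjusted p = 0.000106). The groups did not overlap. In liver the same transcript was at 126 ± 22.4 CPM (SD, n = 4) in vehicle and 20.04 ± 6.74 CPM (SD, n = 5) at the high dose, again without overlap. Its low dose kidneys, from 35.2 to 104.3 CPM, overlapped vehicle.

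ENSRNOT00000019169 (2437 bases) followed, at 6.37, 3.27, 4.69, 3.82 and 5.30 CPM in vehicle kidneys and 1.16, 1.23, 1.07, 0.948 and 1.40 CPM at the high dose (log2 fold change -2.12 ± 0.234, SE; edgeR adjusted p = 0.000183). All high dose values were below all vehicle values. The third, 2632 bases long, was at 237 ± 65.3 CPM in vehicle and 60.05 ± 11.6 CPM at the high dose (SD, n = 5 each), and the fourth was the 1516-base member, the sixth lowest in liver, at 113.4 ± 31.1 CPM and 31.7 ± 6.09 CPM. The most abundant of the 20 in kidney, 1647 bases long, was at 2687 ± 645 CPM and 1084 ± 229 CPM (SD, n = 5 each). The fold changes of the 20 ran from -2.29 to -0.89, and in all 20 the high dose and vehicle kidneys did not overlap. The 20 were called on these same libraries, so the lack of overlap adds nothing to the calls.

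At the low dose in kidney at 24 h, edgeR called none of 220 members in either direction, compared with 0.0216% of transcripts lower and 0.0377% higher. At an unadjusted p under 0.05, 55 of the 220 were lower, compared with 5.58% of transcripts. The low dose shares its vehicle kidneys with the high dose. For the 20 called at the high dose, the median log2 fold change was -0.65 at the low dose and -1.33 at the high dose, 19 of 20 were below 0 at the low dose, and the low dose mean lay between the others for 18. At the high dose at 8 h the median of the 20 was -0.22. The 20 were called against the same 24 h vehicle kidneys, which favours low dose values below vehicle. The low dose counts were not made for all transcripts called lower, so nothing is read from them.

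**Figure D5:**
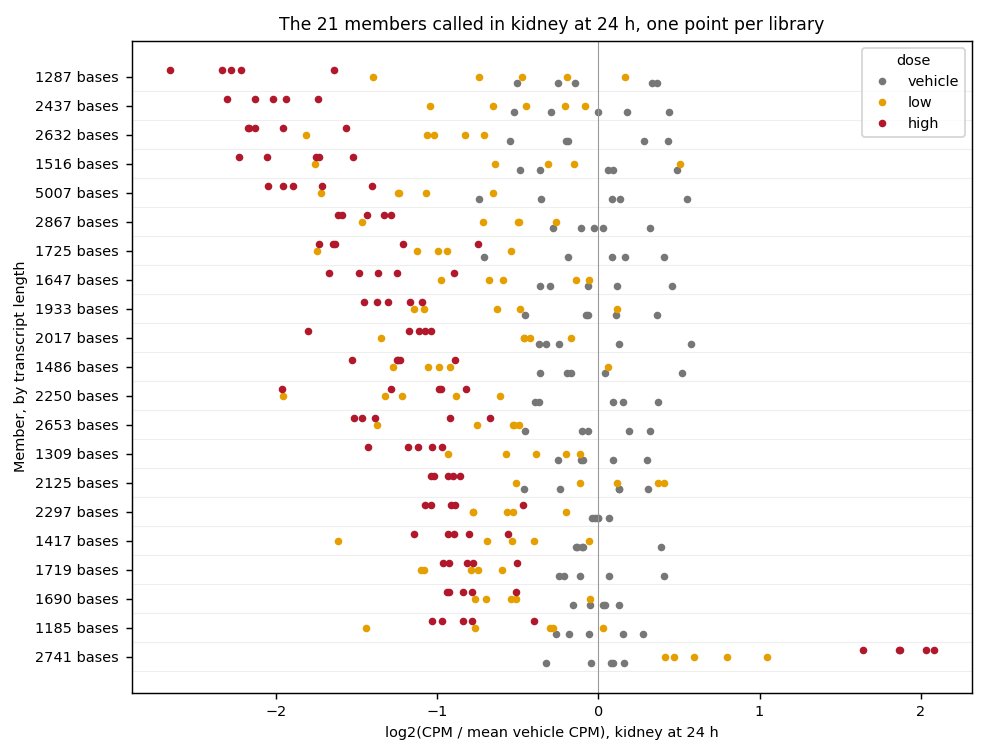
Level of the 21 members called in kidney at 24 h, as log2 of the CPM over the mean vehicle CPM, with 1 point per library for vehicle, low and high dose (n = 5 each) and members ordered by fold change and labelled by length. High dose points lay left of all vehicle points for 20 members and right of them for the member of 2741 bases, with most low dose points in between.

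The member that rose in kidney was ENSRNOT00000090256 (2741 bases), at 12.5, 15.2, 16.8, 16.6 and 17.6 CPM in vehicle and 57.4, 64.4, 49.1, 57.5 and 66.7 CPM at the high dose (log2 fold change 1.80 ± 0.116, SE; edgeR adjusted p = 5.39e-06). The low dose kidneys, from 20.9 to 32.4 CPM, lay between and overlapped neither. In liver it moved the other way, at 49.95 to 63.96 CPM in vehicle and 16.9 to 41.4 CPM at the high dose at 24 h, without overlap. In the 8 h kidneys it was at 13.6 to 31.3 CPM in vehicle and 28.9 to 52.6 CPM at the high dose.

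The falls in low dose liver between 8 and 24 h and in high dose kidney at 24 h coincided for 4 transcripts, which are 22.2% of the 18 and 20% of the 20. The share of all transcripts called lower in both was not counted, so nothing is read from this overlap. The 2 comparisons share no library, although the high dose and vehicle kidneys came from animals whose livers chose the members. The 4 were ENSRNOT00000056322 and members of 5007, 1725 and 2867 bases. ENSRNOT00000056322 was at 17.6 ± 3.02 CPM in vehicle kidneys and 9.71 ± 1.45 CPM at the high dose (SD, n = 5 each). The 2867-base member, which is not the lowest member of the same length, was at 583.6 ± 91.7 CPM and 214 ± 21.9 CPM (SD, n = 5 each).

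At 8 h in kidney the members moved little at the high dose. EdgeR called none of 223 tested lower, compared with 0.409% of transcripts. DESeq2 called 2 lower and 4 higher, while it called 3.24% of transcripts in either direction. At an unadjusted p under 0.05 by edgeR, 23 were lower, compared with 12.4% of transcripts. EdgeR called 1 higher, compared with 1.09% of transcripts. That member, ENSRNOT00000024419 (2272 bases), was at 10.01, 10.9, 11.6, 10.97 and 9.04 CPM in vehicle and at 32.3, 24.0, 31.2, 28.3 and 35.5 CPM at the high dose (log2 fold change 1.54 ± 0.130, SE; edgeR adjusted p = 8.19e-05). The groups did not overlap, and by 24 h its high dose kidneys, from 10.7 to 15.2 CPM, lay within the range of vehicle (6.47 to 18 CPM). The median log2 fold change of the members at 8 h was -0.07, against -0.03 for all transcripts. The count of 1 depended on single libraries: without vehicle library MS-100, 6 members were called lower and 6 higher, and 4.88% of transcripts were called in either direction. Without MS-38, 3 were called higher, and without MS-46, 2, while 1.43% and 1.07% of transcripts were called in either direction. At the low dose at 8 h, edgeR called none of 221 members, compared with 0.0425% of transcripts lower and 0.175% higher, and at an unadjusted p under 0.05, 12 were lower and 4 higher, compared with 5.4% and 6.51% of transcripts.

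In heart at 24 h, 169 members were expressed highly enough to be tested at the high dose. EdgeR called 1 lower, compared with 0.245% of transcripts, and none higher, compared with 0.677%. At an unadjusted p under 0.05, 9 of the 169 were lower and 17 higher, compared with 9.99% and 10.9% of transcripts. Without a limit between organs, 1 of 188 tested was called lower and none higher. Their median log2 fold change was 0.03, against -0.0029 for all transcripts. The transcript called, ENSRNOT00000049729 (2297 bases), was at 12.3, 9.55, 11.6, 10.01 and 11.2 CPM in vehicle and 6.17, 4.62, 6.34, 6.28 and 5.53 CPM at the high dose (log2 fold change -0.89 ± 0.107, SE; edgeR adjusted p = 0.00107). It was also among the 20 in kidney, at 51.1, 52.3, 52.4, 51.8 and 54.9 CPM in vehicle against 25.5, 28.3, 38.01, 24.9 and 27.8 CPM. Neither organ's groups overlapped. In liver it did overlap, from 40.2 to 148.9 CPM in vehicle and from 21.5 to 64.3 CPM at the high dose. The call was lost without high dose library MS-66, without vehicle library MS-61 and with limma on log2(TPM + 1). Counts of changed members in heart were 3 without MS-63 and 2 without MS-84, MS-86 or MS-61. In these settings 0.53% to 0.985% of all transcripts were changed. EdgeR called no member in the other 3 heart comparisons, where of all transcripts 0.0171% were called higher at the high dose at 8 h and none otherwise. At an unadjusted p under 0.05, 4 members were lower and 7 higher at the high dose at 8 h, compared with 4.39% and 5.3% of transcripts. At the low dose, 2 were lower and 7 higher at 8 h, compared with 1.87% and 2.06%, and 4 were lower and 11 higher at 24 h, compared with 3.98% and 5.19%.

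The members were not one tissue class in the vehicle animals. Counting an organ where the CPM was at least 10% of the liver CPM, 135 members were found in liver, kidney and heart, 83 in liver and kidney, 4 in liver and heart and 18 mostly in liver. The limit between organs had removed transcripts at 20 or more times the larger of the kidney and heart levels. It thus held down the count mostly in liver, and nothing is read from the sizes of the classes. All 23 interval-linked members were in the first class. The class of liver and kidney had a median vehicle level of 90.4 CPM in liver, 86.7 CPM in kidney and 0.253 CPM in heart. It held 14 of the 20 members lower in kidney, out of 76 tested, against 4 of 128 in the class of all 3 organs and 2 of 14 mostly in liver. The classes were set from the 24 h vehicle levels, which are also the reference in the kidney comparison. Shares of all transcripts by class were not counted, so nothing is read from these counts. The median centred liver difference at 24 h was between -1.88 and -1.84 in all 4 classes.

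The members had a median length of 1757 bases, from 49 to 13339, against 2201 bases for the 13833 transcripts of at least 1 CPM in 24 h vehicle livers. Without the interval-linked 23 the median was 1869 bases. The 217 had a median vehicle level of 26.7 TPM, against 4.64 TPM for those 13833 transcripts. A limit on a log2 difference with 1 CPM added can be met only by transcripts with some expression in vehicle, and the lowest member was at 0.771 CPM there.

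The limit at -1.5 cut through a continuous range. The 3 members just inside it had centred differences of -1.5023, -1.5019 and -1.5008, at 3.33, 0.771 and 141 CPM in vehicle. The 3 transcripts just outside had -1.4972, -1.4959 and -1.4949, at 338, 696 and 46.5 CPM. Which transcripts stood near the limit varied with the libraries used, and leaving out single liver libraries left between 174 and 236 of the 240 members.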

How the data were processed

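RNA was sequenced as stranded poly-A libraries with 75-bp paired-end reads. Per the submitters' processing notes and methods, the authors quantified it with kallisto 0.42.2 against Rnor_6.0 and deposited, for each target, an estimated count (not normalized, not always whole) and a TPM (abundance scaled by target length and library). Groups came from the labels. The members and lists were chosen with earlier results of these data known. CPM was computed from the estimated counts of the 40071 transcripts alone. Transcripts were fitted in edgeR 4.0.16 (R 4.3.3): counts rounded to whole numbers, default filter on low counts, TMM scaling, quasi-likelihood test, Benjamini-Hochberg adjustment over all transcripts tested. Whether replicates were separate animals follows from the study's methods. Interval targets, ranging from 4.08% to 28.9% of counts, entered no library size used for CPM, edgeR or DESeq2. They did enter the deposited TPM, which was scaled over all targets, and so the limma alternatives. The fits were tested on simulated data. Alternatives were DESeq2 1.42.0, its size factors, other filters, limma 3.58.1 with a pseudocount of 1 or 0.1 TPM, no fold limit, leaving out each replicate and, added after the data were seen, the interval share and other limits between organs. No table used here pairs transcripts with genes, so gene lists, markers and sequences planned for that case were not used. Transcripts to name were the 10 lowest, the 10 most abundant, those at the limit and the leading calls, with identifiers printed for at most 2 per direction and comparison. Transcript counts split reads between similar isoforms, so values of members that share sequence are uncertain. Total counts ranged from 16332764 to 36303248.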

Additional observations from a re-analysis of the deposited data

Results flagged for a closer look

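Over the values of the named members in 64 groups of 4 or 5 libraries, 5 had 1 library set far from the rest by Dixon's criterion, where chance gives about 1 in 20 groups. ENSRNOT00000022628 was at 769.7 CPM in 24 h vehicle liver MS-4, with the others between 199.6 and 286.2 CPM. ENSRNOT00000040879 was at 6.85 CPM in low dose liver MS-22 at 24 h, with the others between 3.87 and 4.53 CPM. ENSRNOT00000049729 was at 38.01 CPM in high dose kidney MS-54 at 24 h, with the others between 24.9 and 28.3 CPM. ENSRNOT00000079005, one of the interval-linked members, was at 20670 CPM in high dose liver MS-14 at 8 h, where 28.9% of counts were on intervals, with the others between 1134 and 3803 CPM. It was at 17740 CPM in vehicle liver MS-16 at 8 h, where 23.6% of counts were on intervals, with the others between 954.1 and 4012 CPM. The part of the interval share in these values was not tested.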

How the results depend on the processing

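No paired analysis was possible because the labels give each library its own number and no number shared between groups, and do not say whether neighbouring numbers mark a shared day or batch. Of the neighbours MS-14, MS-15 and MS-16, each of another dose at 8 h, all had 23.6% or more of counts on intervals. Other neighbours differed: MS-13, MS-17 and MS-20 had 7.85%, 5.52% and 8.27%, and MS-18, MS-19 and MS-21 had 18.6%, 20.6% and 25.0%. The count of members lower in low dose liver at 24 h than at 8 h (18) became 41 with DESeq2, 8 with limma on log2(TPM + 1), 9 on log2(TPM + 0.1) and 32 without a limit on the fold change. The share of all transcripts called lower went from 2.22% to 3.21%, 0.53%, 0.709% and 6.72% in the same order. The 21 members changed in kidney at 24 h became 39 without the fold limit, as all transcripts changed went from 4.19% to 6.66%. The 1 changed in kidney at 8 h became 6 with DESeq2 (all transcripts 1.49% to 3.24%). The 1 changed in heart at 24 h became 2 with DESeq2, 0 with limma on log2(TPM + 1) and 3 without the fold limit (all transcripts 0.922% to 1.63%, 0.615% and 2.58%). Leaving out each replicate gave between 12 and 21, 16 and 29, 1 and 12, and 0 and 3 in the same order, and between 174 and 236 of the 240 members found again, lowest without 8 h vehicle replicate 3. Of the 240 members, 49 were found again without subtracting the median and 150 without the liver libraries above 10% on intervals, a setting chosen after seeing the data. The cause was not tested, except that settings without the fold limit call more by construction. Every other alternative with all samples in it changed its count by no more than 1.5 times. Calls cover differences of at least 0.866 on the log2 scale by construction, and 50 members had a vehicle level under 5 CPM.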
